A study of Mus musculus with 56 samples.

Results

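The 4 hybridizations described here compared OV, a mouse line grown from ovarian surface epithelium, with the mouse fibroblast line 3T3 after SMART amplification of 10 pg of total RNA of each, which is an amount of the order of a single cell. These 4 arrays were selected by their titles among the 56 arrays of the series. On arrays 1 and 3 the OV target carried Cy5 and the 3T3 target Cy3, and on arrays 2 and 4 the dyes were swapped. They were set beside 4 arrays of the same comparison with SMART from 10 ng of total RNA, for which part of the cDNA entered a first round of PCR and a small part of that product a second, 4 arrays with unamplified cDNA from 100 μg, and 2 arrays that compared technical replicas of OV with each other after SMART from 10 pg. Neither the labels nor the study names a gene altered in either line or a treatment. Whether all targets of a line came from 1 RNA preparation is not stated, and replicate cultures are not described. The p-values below are therefore read as measuring the spread of amplification, labeling and hybridization and not that between cultures. By the study's methods 4 arrays hold 2 independent replicates of each target, whereas the fits took arrays as independent. The p-values may therefore understate the spread of amplification.

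SMART (switching mechanism at the 5′ end of RNA template) copies polyadenylated RNA with a reverse transcriptase that adds a few bases at the end of the first strand, and a template-switching oligonucleotide then gives every cDNA a common end for PCR. Because each cDNA molecule is copied exponentially, an RNA present in a few copies may be missed or copied unevenly when the starting amount is that of a cell. The ovarian surface epithelium is a mesothelium-like layer that expresses keratins, uroplakins and the transcription factors Wt1 and Gata4, whereas 3T3 fibroblasts divide rapidly and secrete extracellular matrix. In the text below a ratio is the log2 ratio of OV over 3T3, a positive one means higher in OV, and a probe or gene is said to be kept when all 4 arrays at 10 pg gave it a ratio. Each line was profiled as bulk RNA, so more cells expressing a gene and more RNA per cell cannot be told apart.

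The 10 pg arrays 1 to 4 gave ratios for 4711, 5137, 2303 and 2338 of 21766 probes, which is 21.6, 23.6, 10.6 and 10.7%. Arrays 3 and 4 thus held fewer than arrays 1 and 2, and each dye orientation was present in both pairs. The mean was 3622 ± 1513 probes at 10 pg and 14090 ± 3259 probes at 10 ng (SD, n = 4 each), without overlap of the arrays. This was the smallest p an exact two-sided permutation test of 4 against 4 arrays can give (0.0286), and 0.0857 after adjustment over the 3 array measures compared. Dye-swap pairs were taken by number as arrays 1 and 2 and arrays 3 and 4, since no label says which arrays share an amplification. With these pairs averaged the values were 4924 and 2320 probes at 10 pg and 16380 and 11810 at 10 ng, where 2 pairs against 2 cannot give an exact p below 0.333. The other 2 measures overlapped. CR, which is 2 SD of the log2 ratios of an array, was 0.595 ± 0.0378 at 10 pg and 0.603 ± 0.129 at 10 ng (exact permutation p = 0.886, adjusted 0.886). The correlation of an array with averaged unamplified cDNA was 0.594 ± 0.0808 at 10 pg and 0.557 ± 0.148 at 10 ng (exact permutation p = 0.714, adjusted 0.886). Both measures were taken over the probes that each array gave, which were fewer at 10 pg. The 2 replica arrays of OV, also SMART from 10 pg, gave ratios for 10810 and 10729 probes (49.7 and 49.3%). The low number of the 4 arrays here was thus not shared by all SMART arrays at 10 pg, and its cause was not tested. Unamplified arrays had 14198 to 18274 ratios, and their CR of 0.840 to 1.07 was above that of every SMART array of either amount.

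**Figure D1:**
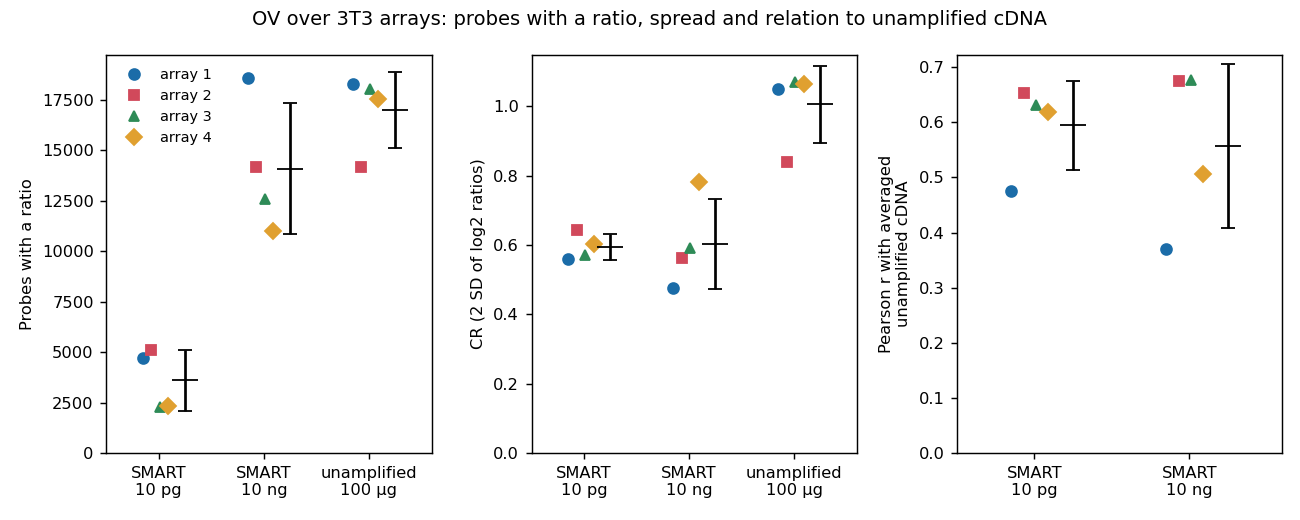
Each point is an array of OV against 3T3, by group from the lowest to the highest amount of RNA, for the number of probes with a ratio, CR (log2 units) and the correlation with averaged unamplified cDNA, and bars give the mean ± SD of 4 arrays. The 4 arrays at 10 pg had 2303 to 5137 probes with a ratio, all below the 11030 to 18588 of the 10 ng arrays, while CR and correlation overlapped between both amounts.

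Probes with a ratio on more of the 10 pg arrays were also those measured more often at the larger amounts. Of 21766 probes, 14954 (68.7%) had no ratio on any 10 pg array, 2724 had one on 1 array, 1787 on 2 arrays, 1013 on 3 arrays and 1288 (5.92%) on all 4. The share of these 5 classes that also had a ratio on all 4 unamplified arrays was 47.4, 74.6, 87.7, 92.9 and 95.6% in the same order. By gene, 1149 of 15063 (7.63%) were kept. Of the probes measured on all 4 arrays at 10 ng and in unamplified cDNA, 13.1% of 9029 and 9.57% of 12866 were kept. Leaving out 1 array raised the kept probes to between 1358 and 1663, and a rule of at least 3 arrays gave 2301.

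Lists of the basic machinery of the cell kept larger shares of their genes than the 7.63% of all genes. Of the list of abundant housekeeping genes 16 of 19 (84.2%) were kept, among them Actb, Cfl1, Eef1a1 and Fth1, which code for actin, cofilin, a translation elongation factor and the ferritin heavy chain. Of the chaperones 23 of 32 (71.9%) were kept, including Calr of the endoplasmic reticulum and the chaperonin subunits Cct3, Cct4 and Cct5. The cytosolic ribosomal proteins kept 39 of 66 genes (59.1%), the proteasome 23 of 47 (48.9%), the respiratory chain 42 of 87 (48.3%), glycolysis and the citrate cycle 14 of 31 (45.2%) and translation factors 28 of 64 (43.8%). Mitochondrial ribosomal proteins (27 of 69), histones (9 of 23), splicing factors (21 of 54) and cytoskeletal genes (17 of 47) lay between 36.2% and 39.1%. These lists were also well covered at 10 ng and in unamplified cDNA, where all 32 chaperones had ratios on all 4 arrays.

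Against the 7.63% of all genes, zinc finger, Hox and keratin genes kept few. Zinc finger genes named Zfp, a family of transcription factors, kept 2 of 183 (1.09%), Zfp420 and Zfp788, although 85 had ratios on all 4 arrays at 10 ng and 133 in unamplified cDNA. None of 33 Hox genes was kept, against 20 at 10 ng and 25 in unamplified cDNA. Keratins and epithelial junction genes kept 1 of 56, which was F11r, against 21 at 10 ng and 36 in unamplified cDNA. Of the growth factor binding proteins and Wnt antagonists 2 of 28 (7.14%) were kept, Axl and Igfbp4, a share close to that of all genes. Lists above it but below the machinery were cell cycle and replication (10 of 64, 15.6%), cholesterol and fatty acid synthesis (4 of 26), chemokines (6 of 45), the fibroblast and extracellular matrix list (13 of 62, 21.0%) and the ovarian surface epithelium list (6 of 27, 22.2%).

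Lists of genes of other cell types and tissues were set beside all genes. Of all 15063 genes, 1149 (7.63%) were kept and 5573 had a ratio on at least 1 array. No olfactory or vomeronasal receptor of 177 was kept, although 20 had a ratio on at least 1 array and 66 had one on all 4 unamplified arrays. None of 29 immune and none of 15 endothelial genes was kept, and 9 and 3 of them had a ratio on at least 1 array. Both lists are short, and at the share of all genes few of their members would be kept. Among 30 products of other tissues, Prm1 (a sperm protamine) and Hba-a1 (alpha globin) were kept (6.67%), a share close to that of all genes. Their mean ratios were 0.11 and -0.02, and neither was called. Ratios were thus also given to some genes of other cell types and tissues.

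Arrays 3 and 4, with the fewest probes, held more cytosolic ribosomal protein genes than arrays 1 and 2. Ribosomal genes with a ratio numbered 53, 54, 61 and 60 on arrays 1 to 4. Housekeeping genes were level at 17, 16, 16 and 16. Zinc finger genes numbered 40, 37, 9 and 10, Hox genes 8, 13, 1 and 2, and immune genes 5, 7, 0 and 0. Some other machinery lists had fewer genes on arrays 3 and 4, with 67, 71, 54 and 51 respiratory chain, 48, 52, 41 and 42 mitochondrial ribosomal and 36, 35, 24 and 28 splicing genes on arrays 1 to 4. Chaperones, at 26, 30, 26 and 27, and proteasome genes, at 31, 37, 31 and 29, were closer to level.

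**Figure D2:**
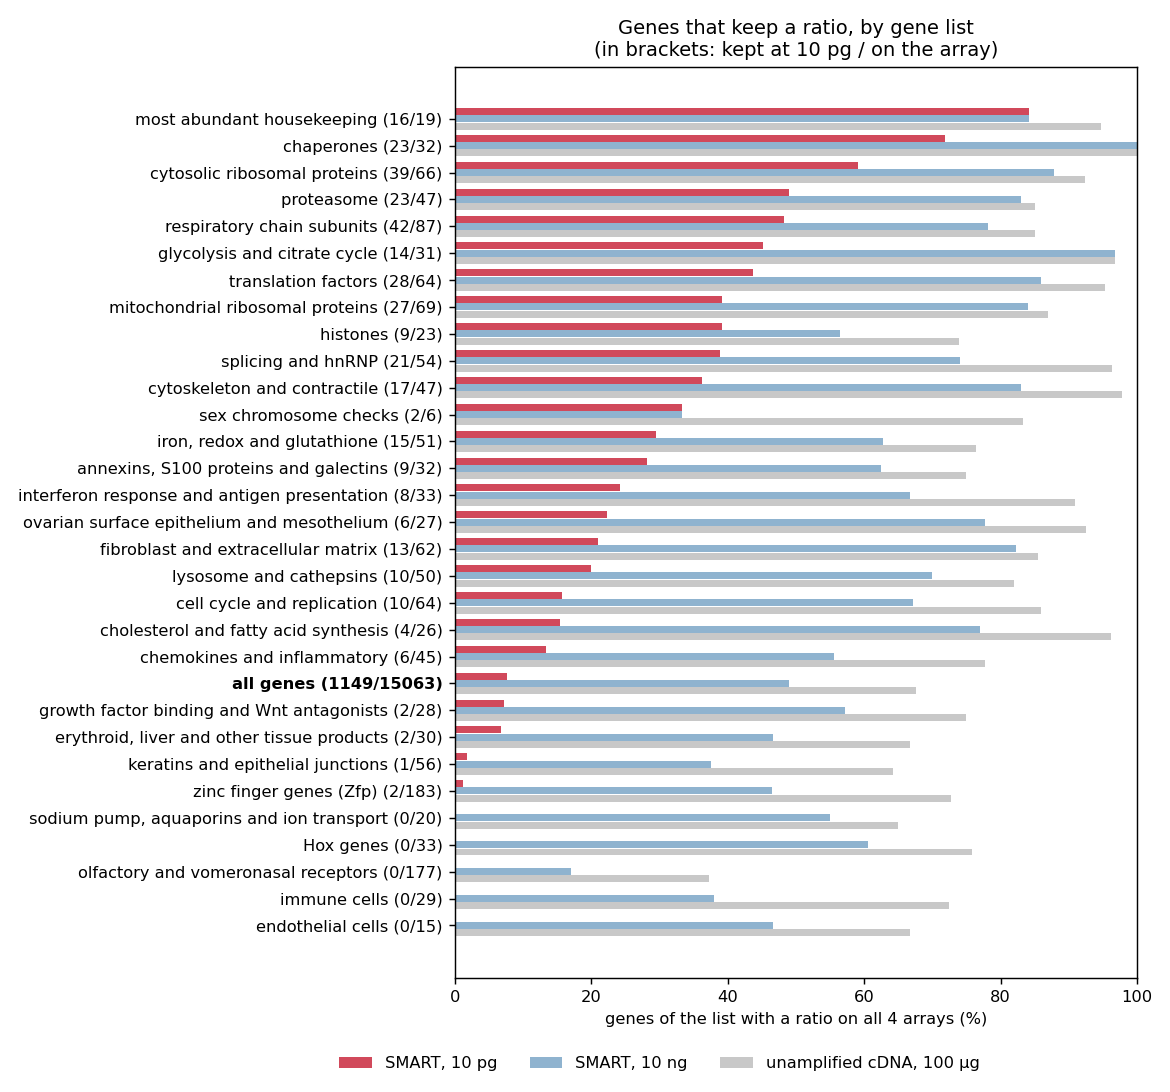
Bars give the percentage of each list's genes with a ratio on all 4 arrays for 10 pg SMART, 10 ng SMART and unamplified cDNA, with counts at 10 pg in brackets. At 10 pg the lists ran from 84.2% of the housekeeping genes to 0 of 33 Hox genes, against 7.63% of all genes.

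Genes with large differences between the lines were kept more often. Among probes measured on all 4 unamplified arrays, 7.02% of those within 0.25 of a log2 ratio of 0 were kept, 15.0% of those between 1 and 2, and 25.8% (32 of 124) of those beyond 2. Of the 20 genes highest in OV in unamplified cDNA 9 had a ratio on all 4 arrays at 10 pg and 1, the transcription factor Maf, on none. Of the 20 lowest 5 had a ratio on all 4 and 4 on none, which were the fibroblast homeobox gene Prrx1, the collagen Col8a1, the water channel Aqp1 and the junction protein Clmp.

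Over the 1288 kept probes the 4 turned arrays correlated with each other at r of 0.693 to 0.823, where probes share arrays and RNA. As deposited, arrays of opposite dye orientation correlated negatively, from -0.562 to -0.676, and those of the same orientation at 0.697 and 0.780. The median of the absolute mean ratio was 0.14 and the median SD over arrays was 0.14. Limma called 115 of 1288 probes (8.93%) at an LOD (log odds of differential expression) above 0, of which 72 (5.59%) were higher in OV and 43 (3.34%) lower in OV. All 115 had the same sign on all 4 arrays. They stood for 102 genes and 10 probes without a single gene symbol, and the highest mean of all, 1.77, belonged to a probe without one. The mean lay beyond 2-fold for 23 probes, 20 higher in OV and 3 lower in OV. The smallest called mean was 0.35 in absolute value.

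The number of calls depended on single arrays and on the pairing. With dye-swap pairs averaged, 2 values a probe, 76 calls were made, of which 53 were higher in OV and 23 lower, and 71 of them were among the 115. Of the named genes Acta2, Aldh1a1, Atp6v1e1, Ctsa, Dnaja1, Eef1a1, Naca, Psma3, Rpl39l, Rrm2, S100a1 and Txn1 were then not called, at adjusted p of 0.01 to 0.018. The count was 71 without array 2 and 73 without array 4, and 79 and 84 without arrays 1 and 3. All 115 probes kept their sign and a limma adjusted p under 0.05 without any 1 array (highest 0.0273), and 53 kept an LOD above 0 in every case. Of the named genes, Dnaja1, Eef1a1, Naca and Psma3 lost the call whichever array was left out. Acta2, Cacybp, Cdkn1a, Hnrnpr, Mras and Txn1 lost it without array 1, 2 or 4, Ctsa and Fabp5 without 2, 3 or 4, Atp6v1e1 without 1, 2 or 3, Rrm2 without 1, 3 or 4, Fdps without 1 or 4, and Rps23 without 3 or 4. Aldh1a1, Anxa5 and Tmem223 lost it without array 2, S100a1 without array 1 and Timp3 without array 3. Where a call is said below to be lost without an array, the LOD beside it is the lowest of these. At an adjusted p under 0.05 in place of the LOD, 400 probes (31.1%) passed.

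Among markers of the ovarian surface epithelium, Upk1b and Aldh1a1 were higher in OV. Upk1b, a uroplakin of mesothelium and urothelium, had ratios of 1.47, 2.27, 1.24 and 1.35 on arrays 1 to 4 (mean 1.58 ± 0.47 SD, 3.00-fold, limma adjusted p = 0.000378). Aldh1a1, a retinaldehyde dehydrogenase, had 1.21, 0.91, 0.72 and 0.51 (mean 0.84, adjusted p = 0.00108). All 8 values were above 0, although the call of Aldh1a1 was lost without array 2 (LOD -0.27). Of the 6 kept genes of the ovarian surface epithelium list these 2 were called and none was called lower (over all kept probes 5.59% were called higher), with a list median of 0.38 against 0.01 over all kept probes. Msln, the mesothelial surface protein mesothelin, averaged 0.43 and Cav1, caveolin, -0.42, and neither was called.

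Other defining markers of the epithelium fell away. Krt8 had ratios on 3 arrays with a mean of 0.51, Krt19 on 3 with 0.24, Wt1 on 2 with 0.34 and Gata6 on 1, while their unamplified means were 3.44, 3.17, 3.65 and 3.29. Krt18, Gata4 and Bnc1 had none at 10 pg, and their unamplified means were -0.75, 0.94 and 2.55. The fibroblast markers Col3a1, Pdgfra, Pdgfrb, Thy1 and Prrx1 had no ratio on any of these 10 pg arrays either. Their unamplified means were 2.15 for Col3a1, -0.16 and -0.06 for Pdgfra, -0.31 for Pdgfrb, -1.60 and -0.09 for Thy1 and -3.33 for Prrx1. In unamplified cDNA Krt18 was thus lower and Col3a1 higher in OV, opposite to the line each was listed for. Few of these markers could be read on these 4 arrays.

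Trf, transferrin, the iron carrier of plasma, was the highest named gene. Its ratios were 1.27, 2.65, 1.44 and 1.58 on arrays 1 to 4 (mean 1.73 ± 0.63, 3.33-fold, adjusted p = 0.000726). A second probe gave a mean of 1.66 and was also called. Array 2 was the highest for both probes, and all 8 values were above 0.9.

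The matrix genes Dcn, Timp3 and Sparc were called, all 3 higher in OV, of 13 kept probes of the fibroblast and extracellular matrix list (median 0.15, against 5.59% called higher over all probes). At an adjusted p under 0.05 in place of the LOD, 6 of the 13 were higher in OV and 2 lower. Dcn, decorin, a small proteoglycan that binds collagen, had 1.58, 1.42, 1.43 and 1.43 (mean 1.47 ± 0.08, 2.76-fold, adjusted p = 5.89e-06). Timp3, an inhibitor of matrix metalloproteinases, averaged 1.01 and Sparc, a collagen-binding glycoprotein, 0.68 ± 0.05. The arrays of Dcn were nearly equal, whereas Timp3 ran from 0.52 to 1.40 and lost its call without array 3 (LOD -0.12). Col1a1 and Col1a2, which code for both chains of type I collagen, averaged 0.12 and -0.49 and were not called.

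Of 7 kept probes of chemokines and inflammatory genes 3 were called higher in OV, which are those of Ccl2 and Saa3, and the list median was 0.90 (over all probes 5.59% were called higher and the median was 0.01). At an adjusted p under 0.05, 5 of the 7 were higher in OV and 2 lower, the chemokine Ccl11 at -0.33 and the cytokine Mif at -0.34. The chemokine Ccl2, which attracts monocytes, had 1.16, 1.07, 1.07 and 1.03 (mean 1.08 ± 0.05, adjusted p = 1.73e-05). Both probes of Saa3, an acute phase protein, were called with means of 0.92 and 0.90. Cxcl12, a chemokine of stromal cells, had 0.22, 1.61, 1.07 and 0.86, and at a mean of 0.94 and LOD of -0.92 it was not called.

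Other genes higher in OV had varied roles. F11r, the junctional adhesion molecule JAM-A of tight junctions, had 0.71, 1.74, 1.20 and 1.17 (mean 1.21, adjusted p = 0.000753) and was the only kept member of its list. Tpm1, tropomyosin, which runs along actin filaments, had 1.62, 1.39, 1.20 and 1.24 (mean 1.36). Acta2, smooth muscle actin, averaged 0.47. The sign was the same on all arrays for each of them, and Acta2 lost its call without array 1 (LOD -0.84). A probe that the platform annotation gives to Mtor, which may be outdated, averaged 1.63, and the membrane protein genes Tmem176b and Tmem223 averaged 1.37 and 1.41, with the call of Tmem223 lost without array 2 (LOD -0.06). Ctla2a, which codes for a protein related to the propeptide of cysteine proteases, averaged 1.43, Sdf2, of the endoplasmic reticulum, 1.35, and Vsnl1, a neuronal calcium sensor, 1.33.

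Pkib, an inhibitor of cAMP-dependent protein kinase, had 1.62, 1.57, 1.41 and 1.45 (mean 1.51 ± 0.10, adjusted p = 5.89e-06). Its relatives Pkig and Pkia, which were looked at after their values were seen, averaged 1.02 and 0.61 and were called too. Ratios of Pkig ran from 0.58 to 1.30 and those of Pkia from 0.54 to 0.76, all above 0. These 3 genes stand close together in the numbering of the probes, in a run of 62 neighboring probe numbers whose 19 kept probes all had positive means. Of these 19, 14 were called higher and none lower, against 5.59% called higher over all kept probes. P4hb, Sdf2, Vsnl1 and Ctla2a were among the 14. The median of the 19 was 0.68 at 10 pg and 0.86 in unamplified cDNA. The run was noticed after the values were seen and starts and ends at probes called higher. Its counts were thus partly fixed by that choice and are no test of the run. Without this run 101 probes were called, 58 higher and 43 lower. What neighboring probes share on the array was not tested.

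**Figure D3:**
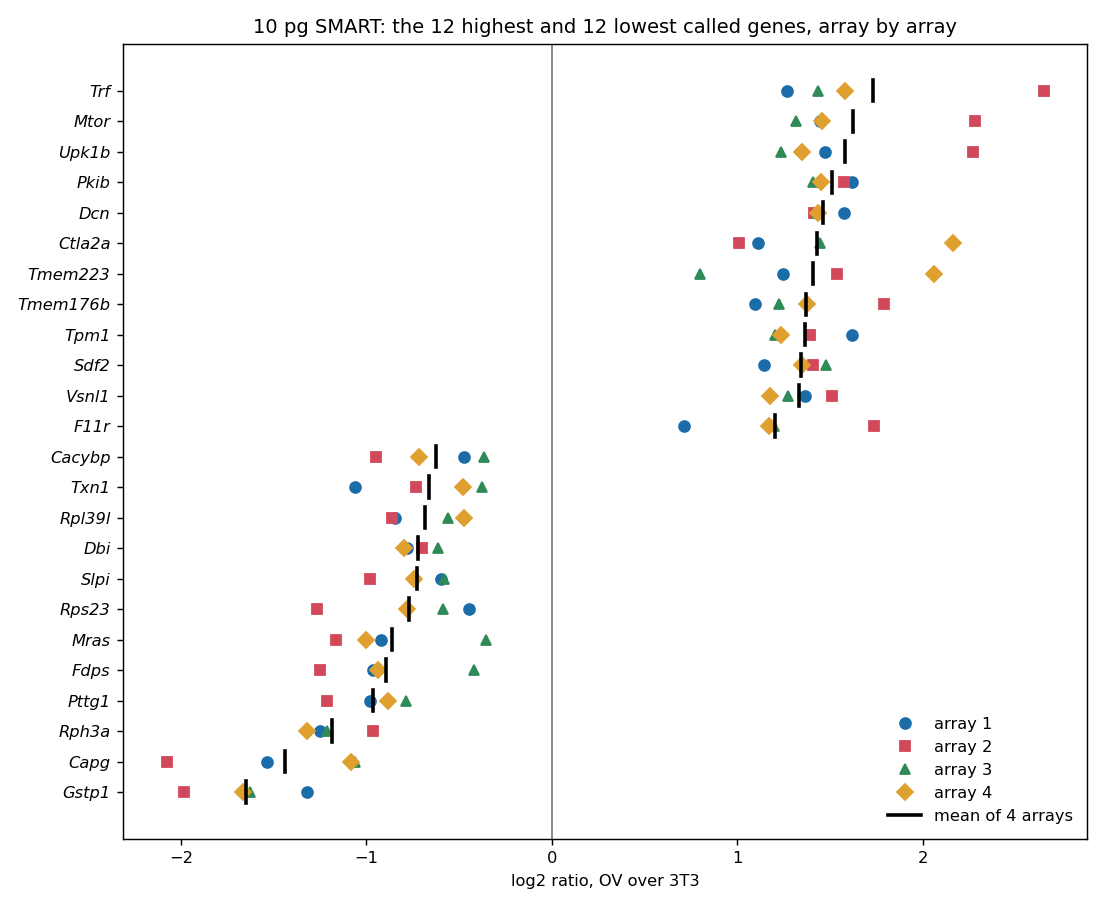
Each row is a gene, with the log2 ratio of OV over 3T3 on each of the 4 arrays at 10 pg as a point, for the 12 highest and 12 lowest called genes. All values of a gene lie on one side of 0, and arrays of Dcn (1.42 to 1.58) are closer together than those of Trf (1.27 to 2.65).

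Gstp1, a glutathione S-transferase that detoxifies electrophiles, had the lowest mean ratio of the kept genes. It had -1.32, -1.98, -1.63 and -1.67 on arrays 1 to 4 (mean -1.65 ± 0.27, 3.14-fold lower in OV, adjusted p = 2.97e-05). Capg, a protein that caps actin filaments, had -1.54, -2.08, -1.06 and -1.08 (mean -1.44, adjusted p = 0.00056). Both were below -1 on every array. In the list of iron, redox and glutathione genes, 3 of 16 kept probes were called higher in OV (both of Trf, and the peroxidase Prdx2 at 0.77) and 2 lower (Gstp1, and thioredoxin, Txn1, at -0.66, whose call was lost without array 2 at an LOD of -1.78).

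The promoters of F11r and Gstp1 are shown because these genes, one higher and one lower in OV, were both kept on all 4 arrays and share a motif close to the start. They span 250 bases before to 50 bases after the annotated start in the RefSeq annotation of GRCm38.p6, F11r at chr1:171437311-171437610 on the plus strand and Gstp1 at chr19:4037863-4038162 on the minus strand. Capitals mark the AP-1 motif TGACTCA, searched on both strands and here read as its reverse complement.
F11r: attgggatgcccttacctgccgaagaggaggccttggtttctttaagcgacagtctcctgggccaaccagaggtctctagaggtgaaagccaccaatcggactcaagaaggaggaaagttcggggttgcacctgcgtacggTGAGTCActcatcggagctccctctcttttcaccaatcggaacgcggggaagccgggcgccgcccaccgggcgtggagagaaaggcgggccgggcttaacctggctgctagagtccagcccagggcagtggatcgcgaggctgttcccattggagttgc
Gstp1: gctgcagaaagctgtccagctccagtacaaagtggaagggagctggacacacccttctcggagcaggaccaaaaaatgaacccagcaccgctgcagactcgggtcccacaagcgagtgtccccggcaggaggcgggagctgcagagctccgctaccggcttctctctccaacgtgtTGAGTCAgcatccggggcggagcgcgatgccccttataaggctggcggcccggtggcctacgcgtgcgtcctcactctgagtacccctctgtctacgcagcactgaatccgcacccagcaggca
The motif starts 109 bases before the start of F11r and 74 bases before that of Gstp1, where it overlaps an ARE-like match to TGANNNNGC. It was found in 5.20% of 32851 promoters of this length, and in 6 of the 84 called genes with a promoter sequence (7.14%). A match describes the letters only, and binding was not measured.

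Of 10 kept cell cycle genes 3 were called, all lower in OV (over all probes 3.34% were called lower), 9 had a negative mean and the median was -0.32. Pttg1, securin, which restrains the separation of sister chromatids until anaphase, had -0.98, -1.21, -0.79 and -0.89 (mean -0.97 ± 0.18, adjusted p = 0.000169). Cdkn1a, the cyclin-dependent kinase inhibitor p21, averaged -0.57 and Rrm2, a ribonucleotide reductase subunit, -0.41. Pttg1 kept its call without any 1 array, while Cdkn1a lost it without array 4 (LOD -1.13) and Rrm2 without array 1 (LOD -1.40). As Cdkn1a restrains the cycle and Rrm2 serves DNA synthesis, the 3 called members do not have the same role. Mki67, a marker of dividing cells, averaged -0.36 and was not called.

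Fdps, which makes farnesyl diphosphate in the cholesterol pathway, had -0.96, -1.25, -0.42 and -0.94 (mean -0.89, adjusted p = 0.00132) and lost its call without array 1 (LOD -0.53). It was the only called gene of 4 kept from its list. Among other genes lower in OV, Dbi, which binds acyl-CoA, averaged -0.72 ± 0.08, Slpi, a secreted protease inhibitor, -0.73 ± 0.18, Mras, a small GTPase, -0.86 ± 0.35, and the annexin partner S100a10 -0.55 ± 0.11. Mras lost its call without array 1 (LOD -0.85). The fatty acid binding protein gene Fabp5 averaged -0.58 and Cacybp, a calcyclin-binding protein, -0.63, and both lost the call without array 4 (LOD -1.40 and -1.36).

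Most of the machinery lists had smaller shares of called probes than the 8.93% of all kept probes. Counts per list were small, and a few more calls would bring these shares to 8.93% or above. Of 39 kept ribosomal protein probes none was called higher and 2 lower, Rps23 (mean -0.77) and Rpl39l (mean -0.69), with a list median of -0.04, and Rps23 lost its call without array 4 (LOD -1.33). Of 42 respiratory chain probes 1 was called, Ndufa13 of complex I at 0.62, with a median of -0.03. None of 27 mitochondrial ribosomal, 14 glycolysis and citrate cycle, 9 histone and 8 interferon and antigen presentation probes was called. The proteasome had 1 call of 23 (Psma3, -0.36) and splicing factors 1 of 22 (Hnrnpr, 0.49). Both lost the call when 1 array was left out, Psma3 at its lowest without array 3 (LOD -1.64) and Hnrnpr without array 4 (LOD -1.40).

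Larger shares than 8.93% were called among chaperones (4 of 23), cytoskeletal genes (3 of 18), translation factors (4 of 31) and housekeeping genes (2 of 16, Hspa8 and Eef1a1), and no list was tested against the others. Here too the counts were small, and a few calls fewer would bring these shares below 8.93%. The 4 chaperones were all higher in OV, and the median of their list was 0.10. P4hb, the disulfide isomerase of the endoplasmic reticulum, averaged 1.06, the small heat shock protein Hspb1 0.92, the cytosolic Hspa8 0.63 and its cochaperone Dnaja1 0.43. Hspb1 was even across arrays at 0.96, 1.06, 0.67 and 0.99, and Dnaja1 lost its call without array 1 (LOD -0.61). Of 31 translation factor probes 2 were called higher, Eef1a1 and the probe of its pseudogene Eef1a1-ps1, which may share sequence and cannot be told apart here, and 2 lower, Eif3e at -0.52 and Naca at -0.41. Eef1a1 and Naca lost their calls without array 1 (LOD -1.18 and -1.23). Annexins and S100 proteins had 2 calls higher (Anxa5 at 0.78, lost without array 2 at LOD -0.48, and S100a1 at 0.70, lost without array 1 at LOD -0.51) and 1 lower in 9 kept probes, and lysosomal genes 2 higher in 10, Ctsa and Atp6v1e1, at 0.45 and 0.44. Ctsa was lost without array 4 (LOD -1.75) and Atp6v1e1 without array 3 (LOD -1.10).

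**Figure D4:**
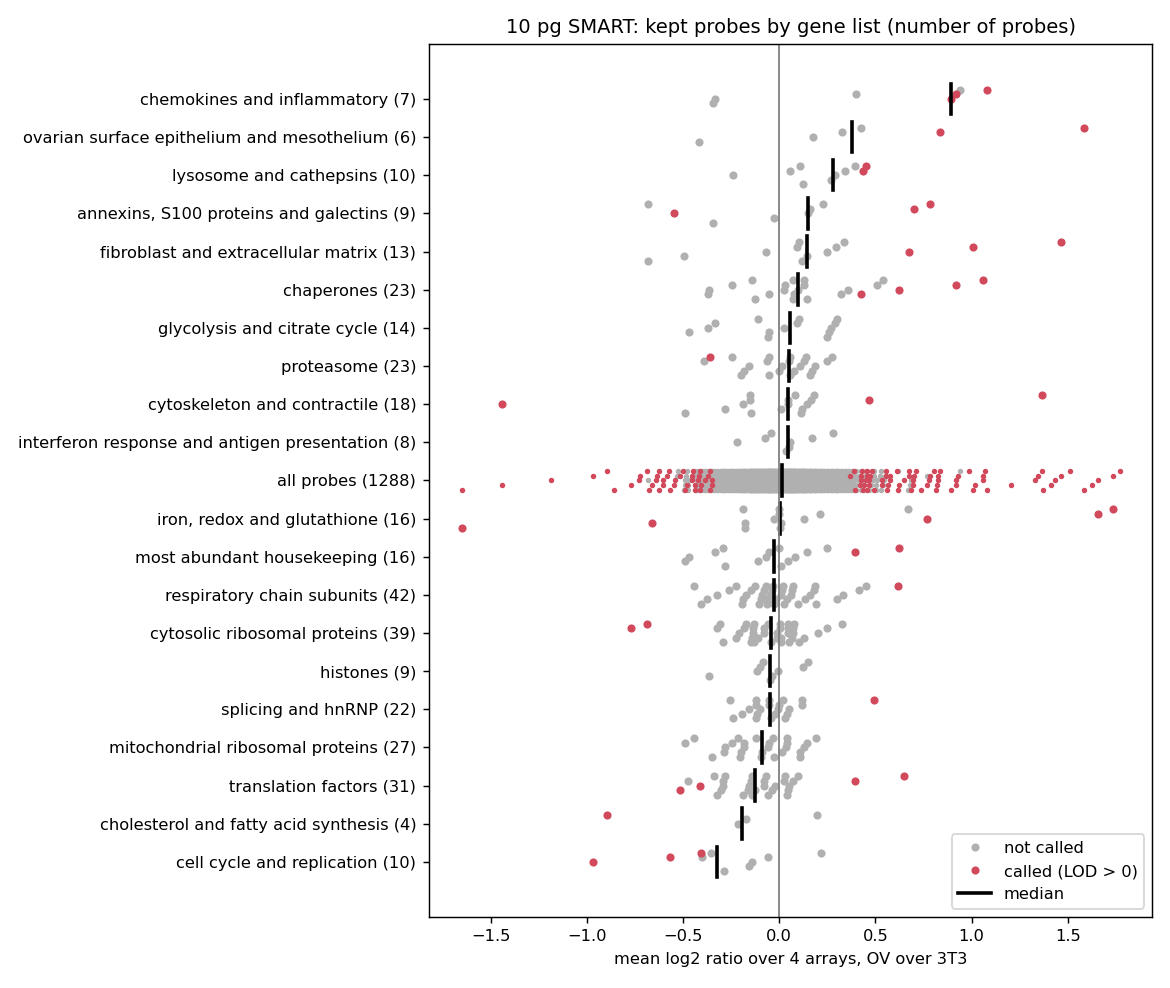
Each point is a kept probe at 10 pg, placed by its mean log2 ratio of OV over 3T3 over 4 arrays and grouped by gene list, with called probes in color. Ribosomal, respiratory chain and mitochondrial ribosomal probes lie close to 0 (medians -0.04, -0.03 and -0.09), chemokine probes to the right (median 0.90) and cell cycle probes to the left (median -0.32).

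Sex-linked transcripts gave a check of direction. Xist, the RNA that coats the inactive X chromosome of female cells, had 0.88, 1.00, 0.91 and 0.50 (mean 0.82, adjusted p = 0.000548), which is higher in OV. The Y-linked Eif2s3y averaged -0.14 and was not called, with an unamplified mean of -0.69. Of other Y-linked genes, Kdm5d had -0.02 and 0.02 on arrays 1 and 2 only, and Usp9y and Uty had no ratio at 10 pg. Unamplified means of Kdm5d, Usp9y and Uty were -0.03, 0.62 and 0.02, which for Usp9y is higher in OV. Only Xist was called, so the check of direction rested on it. Cdkn2a, often deleted in 3T3 lines, had no ratio at 10 pg.

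The ratios at 10 pg were set against those of the larger amounts over the same probes, with probes as the points and both lines in common. Over 1186 kept probes r with averaged 10 ng SMART was 0.855 and the least squares slope of 10 pg on 10 ng was 0.723. Over 1231 kept probes r with unamplified cDNA was 0.805, and the slope was 0.345. A log2 ratio at 10 pg was thus on average smaller in absolute value than that in unamplified cDNA, whether positive or negative. The slope of 10 ng SMART on unamplified cDNA over kept probes was 0.455. Upk1b averaged 1.58 at 10 pg, 1.70 at 10 ng and 4.26 in unamplified cDNA, and Gstp1 -1.65, -1.56 and -2.70. Over kept probes the CR of averaged arrays was 0.624 at 10 pg, 0.753 at 10 ng and 1.46 in unamplified cDNA, and 23, 32 and 125 probes lay beyond 2-fold.

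**Figure D5:**
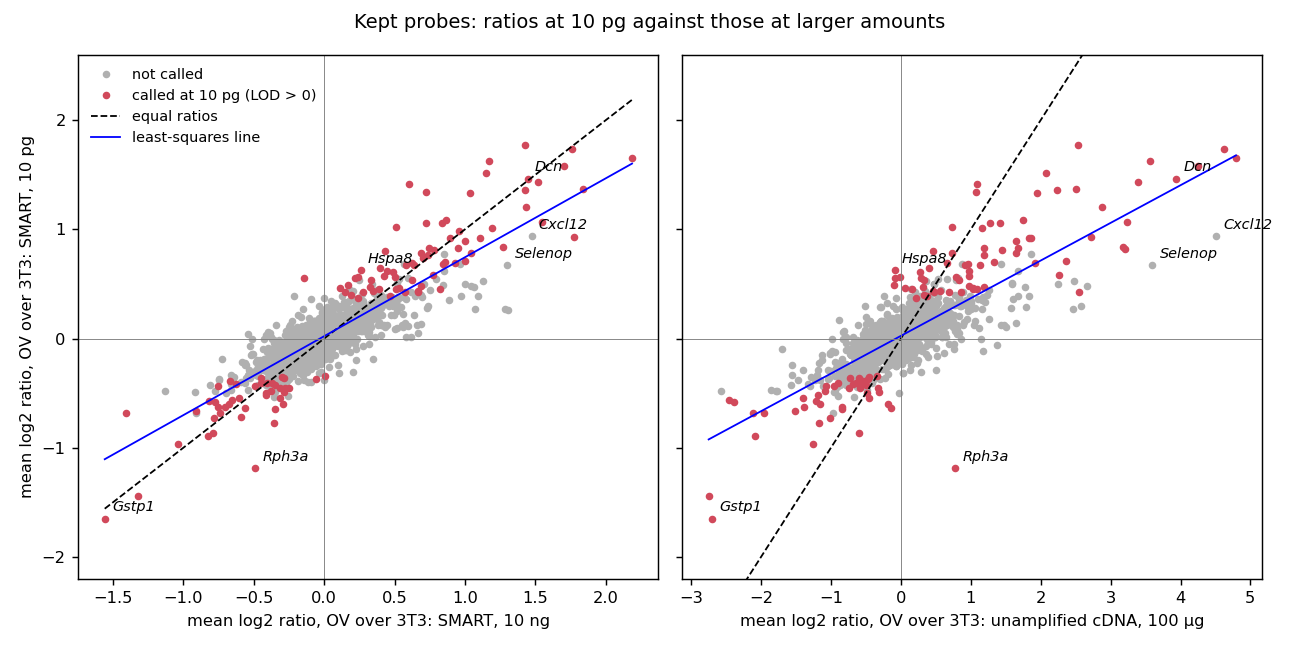
Each point is a kept probe, with its mean log2 ratio of OV over 3T3 at 10 pg on the vertical axis against that of 10 ng SMART (left) or unamplified cDNA (right), and called probes in color. The points follow a slope of 0.723 against 10 ng and 0.345 against unamplified cDNA.

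The called probes kept their direction. Of 113 called probes measured on all 4 arrays at 10 ng 111 had the same sign there, and 59 were called at both amounts, which is 51.3% of the calls at 10 pg and 19.6% of the 301 at 10 ng (3.33% of 9029 probes). Of these 301, only 109 were kept at 10 pg and could be called there, out of 1186 kept probes measured at 10 ng. Of 112 measured in unamplified cDNA 107 had the same sign and 85 were called in both, which is 73.9% of the calls at 10 pg and 4.33% of the 1963 in unamplified cDNA (15.3% of 12866). Of these 1963, only 340 were kept at 10 pg, out of 1231 kept probes measured in unamplified cDNA. The 5 with the opposite sign in unamplified cDNA were Hspa8 (0.63 at 10 pg and -0.09), Akr1a1 (0.56 and -0.01), Ptma (0.55 and -0.08), Hnrnpr (0.49 and -0.10) and Rph3a, 4 of them close to 0 in unamplified cDNA.

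Rph3a, rabphilin, which binds Rab3 on synaptic vesicles, was called in opposite directions. At 10 pg it had -1.25, -0.96, -1.21 and -1.32 (mean -1.19 ± 0.15, adjusted p = 3.05e-05). At 10 ng it averaged -0.49 ± 0.24, and in unamplified cDNA it had 0.78, 0.50, 1.10 and 0.71 (mean 0.77 ± 0.25). Both sets of SMART arrays were below 0 and all 4 unamplified arrays above it.

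No probe of 1186 (0%) differed between 10 pg and 10 ng at a limma adjusted p under 0.05, while 95 had an unadjusted p under 0.05 and 2 an LOD above 0. The arrays of both amounts did not overlap for 61 probes (5.14%). The smallest p was that of H19, an imprinted long noncoding RNA, with 0.45, 0.49, 0.09 and 0.01 at 10 pg and 0.82, 1.50, 1.56 and 1.35 at 10 ng (difference -1.05 ± 0.18 SE, adjusted p = 0.0618). H19 was named after its values were seen. Without array 1 of the 10 ng set 18 probes differed, and without array 2 of the 10 pg set 2 did.

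Against unamplified cDNA, 429 of 1231 probes (34.8%) differed at an adjusted p under 0.05, 252 with a higher and 177 with a lower ratio at 10 pg. Of these, 410 were closer to 0 at 10 pg, and 107 had opposite signs. When each array was first scaled to a common spread, 178 differed. The differences that stood furthest below were Cxcl12 (mean 0.94 at 10 pg and 4.51 in unamplified cDNA, difference -3.57 ± 0.25 SE), the second Trf probe (-3.14), the selenium carrier Selenop (0.67 and 3.60, difference -2.93) and Upk1b (-2.67). Those furthest above were the stem cell factor gene Kitl (-0.48 and -2.58, difference 2.10), Cdkn1a (1.90), Fabp5 (1.81) and the histone gene H3c7 (-0.10 and -1.70, difference 1.60). For all 8 the arrays of both sets did not overlap, as for 417 of all 1231 probes (33.9%).

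The replicas of OV gave the spread of 10 pg SMART without a difference between lines. Over the 882 kept probes with a ratio on both replica arrays, CR of the 2-array average was 0.657 for the replicas, and 0.577 to 0.696 for averages of 1 array of each dye orientation of OV against 3T3. Beyond 2-fold lay 11 probes for the replicas and 14 for OV against 3T3 over 4 arrays. The spread of the ratios thus overlapped between both comparisons, while the replica ratios correlated with those of the lines at r = 0.00636 over these probes. Turned by their dye labels, the 2 replica arrays correlated with each other at r = 0.483 over kept probes. Arrays of swapped dyes thus also correlated where no difference between lines was present. Of the 84 called probes on both replica arrays, 80 had a larger ratio between the lines than between replicas in absolute value, the exceptions being Atp6v1e1, Ccs, Rdh14 and 1 probe without a symbol. As these probes were called by their ratio between the lines, this was largely fixed in advance and is no test of the calls. It also set a mean of 4 arrays against a mean of 2. The replica ratio of these 84 had a median of 0.156 and a maximum of 0.748 in absolute value.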

How the data were processed

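Arrays held 65-mer oligonucleotide probes. The authors deposited log2 ratios of Cy5 over Cy3, made from background-subtracted spot intensities (GenePix Pro). A lowess curve was fitted per print tip on every array in limma, whose version is not given in the sources used here. They were used as deposited. Intensities were not used here, why a ratio is missing is not given, and the number of probes with a ratio stands for depth. Ratios were turned to OV over 3T3 by the dye labels. The study gives both ratio directions in different places, so the direction is the likely one, and the labels of the larger amounts give other units than the study's methods, which were followed. All 4 arrays hold 2 independent replicates of each target by the methods, and the fits took arrays as independent. Of 21997 probes 231 controls were left out. Of the rest 16632 had 1 gene symbol, 139 several and 4995 none, by GEO's platform annotation. No comparison columns of the authors were present.

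Means, LOD (prior proportion 0.01, called above 0) and Benjamini-Hochberg adjusted p over all tested probes came from lmFit and eBayes in limma 3.58.1 (R 4.3.3). Differences between amounts used probes on all 8 arrays, fitted over both groups. A fold is 2 to the power of the absolute mean ratio. Exact permutation tests used scipy 1.17.1, tables pandas 2.3.3 and figures matplotlib 3.10.9 (Python 3.11.15). Fits were tested on simulated data. Named genes were the 12 highest and 12 lowest called genes without clone names, up to 4 called members of each of 30 lists (or 2 uncalled), up to 4 kept members of each list by alphabet, up to 4 genes in each direction that differed most from another amount, sex-linked genes and Cdkn2a, and genes kept without any ratio at 10 ng. The members, lists and rules were chosen with earlier results of these data known. Alternatives changed the threshold, prior, filter on missing values, variance prior, dye term, scaling, centering, pairing, unit of test, controls and the arrays included. Promoters came from RefSeq (GRCm38.p6), as 32851 sequences matched by symbol.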

Additional observations from a re-analysis of the deposited data

Results flagged for a closer look

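In each group of 4 arrays of the 74 named probes, a value far from the other 3 was looked for, which chance gives in about 1 of 20 groups, and 2 were found. The probe annotated to Mtor had 2.28 on array 2 against 1.32 to 1.46 on the others. Dcn had 1.58 on array 1 against 1.42 to 1.43 on the others, a gap that is large only because these 3 lay so close together.

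The ratio of OV over 3T3 differed between 10 pg SMART and unamplified cDNA for 45 of the 74 named probes. This was by a test of the difference itself in limma, with no overlap of arrays. Over all 1231 probes tested, the same held for 367. Some named genes were chosen because they differed most or had extreme ratios, so a larger share among them was partly fixed by that choice. Of the named probes, the 4 that stood furthest below had differences in log2 units of -3.57 for Cxcl12, -3.14 for Trf, -2.93 for Selenop and -2.67 for Upk1b, with positive means in both. The 4 furthest above had 2.10 for Kitl, 1.90 for Cdkn1a, 1.81 for Fabp5 and 1.60 for H3c7, with negative means in both. Of the 45, 5 had opposite signs in both sets, with differences of -1.96 for Rph3a, 0.71 for Hspa8, 0.59 for Hnrnpr, 0.44 for the histone variant gene H3f3b and -0.29 for Zfp420.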

How the results depend on the processing

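The 115 calls became 400 at an adjusted p under 0.05, 249 at a prior proportion of 0.05, 76 with dye-swap pairs averaged and 71 to 84 without 1 array. The 1288 kept probes became 2301 on at least 3 arrays, 6812 on at least 1, and 1358 to 1663 without 1 array. CR of 0.624 became 0.411 from the median absolute deviation, 0.561 on at least 3 arrays, 0.212 when the dye swaps were not turned, and 0.572 to 0.629 without 1 array. The correlation with 10 ng of 0.855 was 0.804 by Spearman and 0.817 to 0.844 without 1 array, and that with unamplified cDNA 0.761 to 0.800. The slope on 10 ng was 0.931 over called probes and 0.641 to 0.738 without 1 array, and on unamplified cDNA 0.433 and 0.303 to 0.355. Against 10 ng, where 0 probes differed, 2 had an LOD above 0, 2 differed after scaling, 1 on at least 3 arrays of each and 0 to 18 without 1 array. Against unamplified cDNA, 429 became 147 by LOD, 178 after scaling, 675 on at least 3 arrays and 336 to 478 without 1 array. The cause of these changes was not tested. Of the 52 named probes that were called, 21 lost the LOD call without at least 1 array, 12 with pairs averaged and 1 with values on at least 2 arrays, and none changed sign. With dye-swap pairs averaged, a choice made after seeing the data, the difference in probes with a ratio between 10 pg and 10 ng stayed -10470 while its exact permutation p became 0.333. Signal over background was not analysed here.

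Hybridization numbers did not pair the arrays: deviations of arrays with the same number correlated at -0.00845 to 0.245 with 10 ng and at -0.186 to -0.0149 with unamplified cDNA. With the number as a replicate block, 1 probe differed from 10 ng and 376 from unamplified cDNA. With dye-swap pairs as a random block (estimated correlation -0.266) 162 probes were called, and no named probe that was called lost its call. Leaving out the run of neighboring probe numbers, an alternative chosen after seeing the data, left 101 calls.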

Other observations

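Probes next to each other in the numbering had related ratios beyond the run described above, which was noticed after the values were seen. Over pairs of kept probes 1 number apart the ratios correlated at 0.523 at 10 pg and 0.476 in unamplified cDNA (179 pairs). At a distance of 5 numbers r was 0.0947 at 10 pg (169 pairs), at 10 numbers 0.397 (147 pairs) and at 100 numbers 0.104 (119 pairs), so the values did not decline steadily with distance. Probe numbers may follow gene families as well as places on the slide, and these cannot be told apart here.

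Of the 11 genes with more than 1 kept probe, 7 had one sign on all of their probes. Trf, Saa3 and Igh-VS107, an immunoglobulin heavy chain gene, had every kept probe called, and the DNA repair gene Rad52 had 1 probe called at -0.35 and another at 0.02.

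The 3 kept probes with no ratio on any 10 ng array were those of Fgf3, a fibroblast growth factor, Fcf1, a ribosome assembly factor, and Timm17a, of the mitochondrial import machinery. Their means at 10 pg were -0.11, -0.21 and -0.30, and none was called.

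In GA, the other PCR amplification tried at 10 pg, 92 of the called probes were measured on all 4 arrays of OV against 3T3, and 29 of them had the same sign as with SMART. Over kept probes the GA ratios at 10 pg correlated with unamplified cDNA at -0.105 (968 probes), so their direction was not settled here.

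Fitted as a difference between dye orientations, 2 kept probes, Arl3 and Slc6a9, had an LOD above 0 and 0 an adjusted p under 0.05, while 118 had an unadjusted p under 0.05 in limma.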
